A study of Hydra oligactis with 61 samples.

Results

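brachyury1 (transcript R035976c0g2_i01) is 1 of 23396 transcripts in the RNA count table of head and foot regeneration in *Hydra oligactis*, and it was taken by its identifier alone. The study's annotation pairs the transcript with T-box transcription factor T, the Brachyury protein of vertebrates. T-box proteins bind DNA through a shared domain and switch genes on or off. In *Hydra*, brachyury1 is a known factor of the hypostome, the cone around the mouth, where Wnt/β-catenin signalling maintains the head organizer. It is regarded there as a target of that pathway, and in other animals Brachyury marks the blastopore lip or the early mesoderm.

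The 61 libraries came from 16 groups of polyps of the Innsbruck 12 strain, and each was made from 30 pooled tissue pieces. Head (5 libraries) is the hypostome with the tentacle ring, and Foot (5 libraries) is the foot with the peduncle, both from uninjured polyps. Polyps were cut at mid-body, and the tissue beside each wound was sampled. HR, for head regeneration, is the oral-facing wound of the lower piece at the cut (0 h post amputation, hpa) in 7 libraries, and at 3, 12, 24 and 48 hpa in 3 libraries each. FR, for foot regeneration, is the aboral-facing wound of the upper piece at the same times and in the same numbers. Head, Foot, HR and FR are all labelled DMSO, the solvent. ALP is the aboral wound after 5 µM alsterpaullone for the first 3 h, followed by washing, with 3 libraries at 3, 12 and 24 hpa and 4 at 48 hpa. Alsterpaullone inhibits the kinase GSK3 and so raises β-catenin, which switches on Wnt target genes. FR tissue mixes animals that would and would not have rebuilt a foot. The replicates are separate pools of animals, and the ages of the polyps are not given in the sources used here. In bulk tissue, fewer cells of a type and less RNA per cell cannot be told apart.

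Library totals ran from 14.55 M to 26.11 M counts, with a median of 18.27 M. brachyury1 had between 60 and 2649 counts in a library and was at 0 in none. The log2 values of libraries of a group correlated at r of 0.9798 to 0.992 across transcripts. Levels are given below as CPM, counts scaled to a common library total, after TMM scaling, which evens out library composition. A transcript is called where the edgeR quasi-likelihood test, fitted on all libraries with a batch term, gives a Benjamini-Hochberg adjusted p under 0.01 over the 17676 transcripts tested. The percentage printed beside a comparison is the share of all tested transcripts called in it. The labelled tissues carried the markers chosen for them. The summed CPM of wnt3, wnt7 and the ZIC4 match, which mark the head, was 326 to 353 in Head and 0 to 0.109 in Foot. The summed CPM of nk2, dlx2 and gata3, which mark the foot, was 209 to 237 in Foot and 4.34 to 7.92 in Head. These markers are part of the lists used below, and not every listed gene went this way. Of the 5 foot factors, 4 were called lower in Head than in Foot and 1 higher, dlx1 (75.7 against 62.9 CPM). Of the 4 head factors, 3 were called higher in Head and 1 lower, the DMRT2 match (0.094 against 1.27 CPM). Of all transcripts 67.1% were called there.

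brachyury1 was highest in the mature head, next in head-regenerating tips at 48 hpa, and low everywhere else. Its mean was 150.5 ± 13.02 CPM in Head (SD, n = 5) and 82.4 ± 12.9 CPM in HR at 48 hpa (n = 3). The other 14 groups had means between 4.55 and 12.5 CPM. In falling order these were HR at 24 hpa (12.5 ± 2.23 CPM), FR at 48 hpa (12.1 ± 1.41) and FR at 24 hpa (9.06 ± 1.76), followed by ALP at 3 hpa (8.17 ± 0.321). FR at 12 hpa (7.86 ± 1.59), ALP at 12 hpa (7.66 ± 1.78), ALP at 48 hpa (7.44 ± 0.757) and FR at 0 hpa (6.96 ± 1.38) came next. HR at 3 hpa (6.64 ± 0.703), FR at 3 hpa (6.30 ± 0.558), HR at 12 hpa (5.99 ± 0.715) and HR at 0 hpa (5.95 ± 1.21) followed. Foot (4.75 ± 0.662) and ALP at 24 hpa (4.55 ± 1.01) were lowest. Of the 15 pairs of neighbours in this order, 2 differed beyond their spread, namely Head over HR at 48 hpa and HR at 48 hpa over HR at 24 hpa. The other 13 pairs did not pass the test, with log2 differences of -0.03 to 0.36 and adjusted p of 0.0438 to 0.974 (edgeR). Their 95% intervals together spanned -0.42 to 0.79, so the test does not show that these neighbours were alike.

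**Figure D1:**
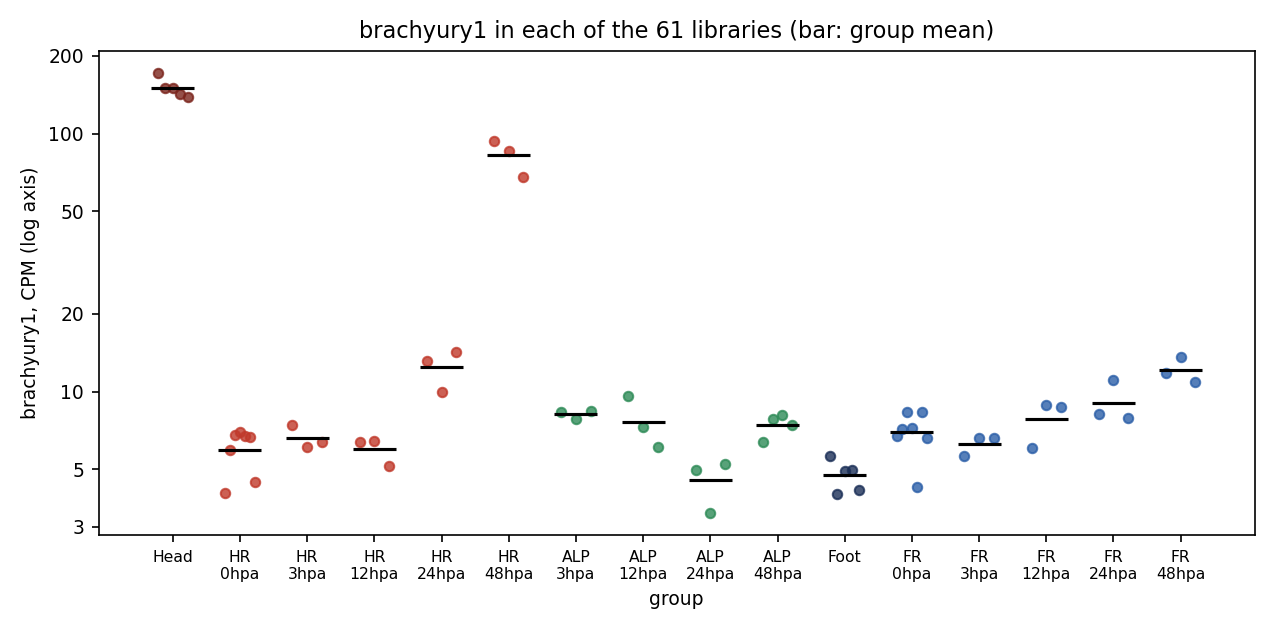
brachyury1 in each of the 61 libraries, in CPM on a log axis, by group, with a black bar at the group mean. The 5 Head libraries lie between 138.3 and 171.9 CPM and the 3 HR libraries at 48 hpa between 68.1 and 93.3 CPM, all above every other library.

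The mature head held far more brachyury1 than mid-body or foot tissue. Head libraries had 171.9, 149.8, 150.5, 142 and 138.3 CPM, whereas the 7 oral-facing body samples taken at the cut (HR at 0 hpa) ran from 4.05 to 6.95 CPM with a median of 6.70. The groups did not overlap, and the log2 fold change of Head over HR at 0 hpa was 4.64 ± 0.11 (SE), or 24.9-fold (adjusted p = 7.36e-40, edgeR, 77.2% of transcripts called). Foot libraries had 5.63, 4.01, 4.95, 4.98 and 4.16 CPM. Head exceeded Foot by 4.98 ± 0.13 on the log2 scale, or 31.6-fold (adjusted p = 5.37e-37, edgeR, 67.1% called). The median log2 fold change of all tested transcripts was -0.14 in that comparison. Exact 2-sided permutation tests of Head gave p = 0.0013 against HR at 0 hpa and p = 0.0079 against Foot, the smallest values these group sizes allow. RNA of nerve and gland cell markers also differed between these tissues. The summed CPM of the 2 RFamide peptide matches, taken as nerve cell markers, was 345 to 469 in Head and 0 to 0.0582 in HR at 0 hpa. In HR at 0 hpa 1 of the 2 was at 0 throughout. Their sum was also low in Foot (0 to 0.369 CPM), and these 2 transcripts are no measure of nerve cells in all. The 2 chymotrypsin matches, which mark gland cells, went opposite ways. The Chymotrypsinogen B match averaged 67.8 CPM in Head, against 0.655 CPM in HR at 0 hpa and 0.393 CPM in Foot. The Chymotrypsin-C match averaged 1.98 CPM in Head, against 22 CPM in HR at 0 hpa and 5.99 CPM in Foot. Their sum, 64.9 to 78.2 CPM in Head against 20.7 to 27.1 CPM in HR at 0 hpa and 4.97 to 8.92 CPM in Foot, is therefore no measure of gland cells in all. The part of these cell types in the head level of brachyury1 was not tested.

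At the other end of the body the level lay slightly below that of the mid-body. The aboral-facing body samples (FR at 0 hpa) ran from 4.26 to 8.35 CPM with a median of 7.17, and their lowest library lay within the range of Foot. Foot was lower than FR at 0 hpa by a log2 fold change of -0.56 ± 0.15 (adjusted p = 0.00109, edgeR, 66.1% called), and the exact permutation p was 0.011. With most transcripts called in this comparison, a call in itself says little about brachyury1. The call was lost against a minimum fold of 1.2, where the adjusted p of edgeR's glmTreat was 0.0152.

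Before regeneration began, brachyury1 did not differ detectably between the wound faces. HR at 0 hpa against FR at 0 hpa gave a log2 fold change of -0.22 ± 0.13 (adjusted p = 0.412, edgeR, 3.82% called), with a 95% interval of -0.48 to 0.05. Within batch 1 the difference in mean log2 CPM was -0.33 (4 libraries each, exact permutation p = 0.086) and within batch 2 it was -0.08 (3 each, p = 1). The batch term itself was -0.08 ± 0.13 for brachyury1 on the log2 scale.

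During head regeneration brachyury1 did not change detectably up to 12 hpa, rose by 24 hpa and rose much further by 48 hpa. At 3 hpa the HR libraries had 7.43, 6.09 and 6.40 CPM, and at 12 hpa they had 6.39, 6.42 and 5.17, all within or just above the 4.05 to 6.95 CPM seen at 0 hpa. The log2 fold changes over 0 hpa were 0.11 ± 0.18 at 3 hpa (adjusted p = 0.722, 10.6% called) and -0.03 ± 0.19 at 12 hpa (adjusted p = 0.936, edgeR, 11.6% called), and the value at 12 hpa changed sign with small changes of the fit. Their 95% intervals, -0.24 to 0.47 and -0.41 to 0.34, lay below the change at 24 hpa.

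At 24 hpa the HR libraries had 13.2, 10.01 and 14.3 CPM, all above the 7 libraries at 0 hpa. On the log2 scale the change over 0 hpa was 1.10 ± 0.17, or 2.15-fold (adjusted p = 3.50e-07, edgeR, 23.8% called). Relative to 12 hpa it was 1.14 ± 0.23 (adjusted p = 6.35e-04, edgeR, 4.38% called). At 48 hpa the libraries had 93.3, 85.7 and 68.1 CPM, from 1751, 1639 and 1744 counts. The log2 fold change over 0 hpa was then 3.74 ± 0.14, or 13.3-fold (adjusted p = 1.88e-29, edgeR, 35% called). By p-value the transcript ranked 15 among all tested in that comparison, and 227 transcripts had a larger log2 fold change. Between 24 and 48 hpa the gain was 2.63 ± 0.20 on the log2 scale, or 6.21-fold (adjusted p = 1.92e-15, edgeR, 12% called). The samples of 24 hpa are all of batch 2 and those of 12 and 48 hpa all of batch 1. Comparisons of 24 hpa with 12 or 48 hpa thus cross the batches and rest on the batch term. Exact permutation p against 0 hpa was 0.0083 at both 24 and 48 hpa, the smallest that 3 against 7 libraries allow.

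The HR libraries at 24 and 0 hpa can be compared within batch 2, where the difference in mean log2 CPM was 1.07 and the 3 libraries of each time did not overlap (exact permutation p = 0.1, the smallest possible). For 48 hpa the comparison within batch 1 gave 3.79 (3 against 4 libraries, exact permutation p = 0.029, the smallest possible). The mature head still exceeded the 48 hpa tips by 0.90 ± 0.13 on the log2 scale, or 1.87-fold (adjusted p = 9.32e-09, edgeR, 65.7% called). The RFamide matches summed to 26.8 to 37.2 CPM in HR at 48 hpa and to 0.244 to 0.706 CPM in HR at 24 hpa. The Chymotrypsinogen B match averaged 6.30 CPM in HR at 48 hpa and 0.742 CPM at 24 hpa, and the Chymotrypsin-C match 16.6 and 22.1 CPM, so that their sums (21.3 to 24.1 and 21.0 to 24.1 CPM) hide opposite differences. Among the 3 libraries at 48 hpa, the head markers summed to 147, 128 and 99.1 CPM and the RFamide matches to 37.2, 37.1 and 26.8 CPM, in the same order as brachyury1. The part of nerve and gland cells in the rise to 48 hpa was not tested.

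**Figure D2:**
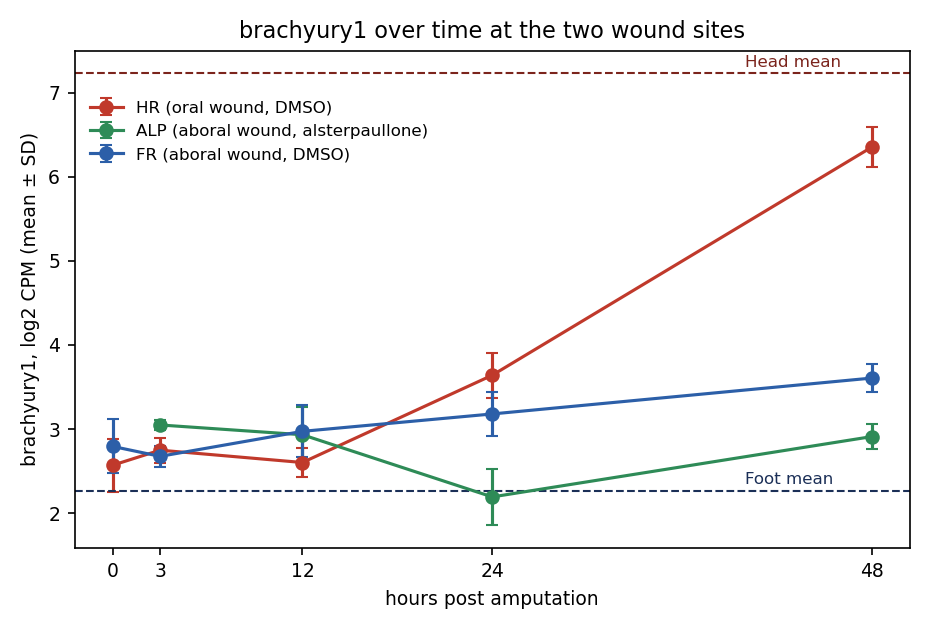
brachyury1 over hours post amputation, as mean log2 CPM ± SD of the libraries of a group, at the oral wound (HR), at the aboral wound after alsterpaullone (ALP) and at the aboral wound in DMSO (FR). Dashed lines mark the means of Head and Foot. HR lies far above the other series at 48 hpa and below the Head line, its libraries at 24 hpa still overlap those of FR, and the ALP mean is lowest at 24 hpa.

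At the aboral wound in DMSO brachyury1 rose late and little. FR libraries had 5.65, 6.63 and 6.61 CPM at 3 hpa and 6.03, 8.84 and 8.70 CPM at 12 hpa, inside the range at 0 hpa apart from the top values of 12 hpa. Log2 fold changes over FR at 0 hpa were -0.18 ± 0.18 at 3 hpa (adjusted p = 0.561, 11.3% called) and 0.12 ± 0.17 at 12 hpa (adjusted p = 0.703, edgeR, 9.93% called). At 24 hpa the libraries had 8.17, 11.1 and 7.93 CPM, overlapping 0 hpa, and the log2 fold change of 0.40 ± 0.17 did not pass (adjusted p = 0.0659, edgeR, 22.1% called). At 48 hpa they had 11.8, 13.7 and 10.9 CPM, all above the 7 libraries at 0 hpa. This was a log2 fold change of 0.76 ± 0.16, or 1.69-fold (adjusted p = 1.54e-04, edgeR, 20% called), with an exact permutation p of 0.0083. In a fit of these 2 groups alone it was 0.71 with an adjusted p of 0.0146, which is not a call. Within batch 1 the 3 and 4 libraries did not overlap at 48 hpa, with a difference of 0.71 in mean log2 CPM (exact permutation p = 0.029). Within that batch the FR libraries at 3 hpa also lay entirely below those at 0 hpa, by 0.22 in mean log2 CPM (exact permutation p = 0.057). Head markers were low at this wound, with a summed CPM of 1.73 to 2.25 at 48 hpa against 0.382 to 1.73 at 0 hpa.

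The wounds parted clearly at 48 hpa. HR over FR at the same time gave 0.08 ± 0.20 at 3 hpa (adjusted p = 0.897, 2.94% called) and -0.37 ± 0.20 at 12 hpa (adjusted p = 0.204, edgeR, 8.84% called). At 24 hpa the HR libraries (10.01 to 14.3 CPM) overlapped the FR libraries (7.93 to 11.1 CPM). The log2 fold change of 0.48 ± 0.17 missed the threshold (adjusted p = 0.0840, edgeR, 4.46% called), but it passed in a fit of these 2 groups alone, with an adjusted p of 0.00343. At 48 hpa the lowest HR library had 68.1 CPM and the highest FR library 13.7 CPM. HR exceeded FR by 2.76 ± 0.15 on the log2 scale, or 6.78-fold (adjusted p = 8.24e-22, edgeR, 22.7% called). The exact permutation p was 0.1, the smallest for 3 against 3 libraries.

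Tested directly, the change since 0 hpa was larger in HR than in FR at 48 hpa. The difference of the 2 log2 changes was 2.98 ± 0.20 (adjusted p = 6.65e-18, edgeR, 15.3% called). At 24 hpa that difference was 0.70 ± 0.22 and did not pass (adjusted p = 0.0797, edgeR, 1.17% called), and 958 of the tested transcripts had a larger difference.

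At the aboral wound brachyury1 was lower after alsterpaullone than in DMSO at 24 and 48 hpa, and no difference at 3 or 12 hpa passed the test. At 3 hpa, when the drug was washed out, ALP libraries had 8.31, 7.80 and 8.40 CPM, all above the FR libraries of that time at 5.65, 6.63 and 6.61. The log2 fold change of 0.37 ± 0.19 was not called (adjusted p = 0.167, edgeR, 13.1% called), and its 95% interval ran from -0.01 to 0.76. At 12 hpa ALP libraries had 9.59, 7.31 and 6.08 CPM and FR libraries 6.03, 8.84 and 8.70, with a log2 fold change of -0.02 ± 0.18 (adjusted p = 0.974, edgeR, 4.01% called) that changed sign when single libraries were left out. The highest of these ALP libraries also stood apart in head markers. Its RFamide matches summed to 12.7 CPM, against 0.328 and 0.102 CPM in the other ALP libraries of 12 hpa, and its 3 head markers to 10.6 CPM, against 5.48 and 2.81. The part of such head RNA in its brachyury1 level was not tested.

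At 24 hpa ALP libraries had 4.99, 3.39 and 5.26 CPM and FR libraries 8.17, 11.1 and 7.93, with no overlap. This gave a log2 fold change of -0.98 ± 0.20 (adjusted p = 2.44e-04, edgeR, 10.9% called), which puts the ALP level at 0.509 of the FR level. Without the lowest ALP library it was -0.78, with an adjusted p of 0.0101, just outside the threshold. At 48 hpa ALP libraries had 6.39, 7.82, 8.13 and 7.42 CPM and FR libraries 11.8, 13.7 and 10.9, again with no overlap. The log2 fold change was -0.70 ± 0.16 (adjusted p = 6.11e-04, edgeR, 16.1% called), and the exact permutation p of 0.029 is the smallest for 4 against 3 libraries. Against a minimum fold of 1.2 this call was lost, with an adjusted p of 0.0201 from edgeR's glmTreat.

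The effect of alsterpaullone at 24 and at 48 hpa differed from that at 3 hpa, which was itself not called. The log2 effect at 24 hpa was lower than that at 3 hpa by 1.35, as a difference of -1.35 ± 0.28 (adjusted p = 1.78e-04, edgeR, 16% called). The effect at 48 hpa less that at 3 hpa was -1.08 ± 0.25 (adjusted p = 7.30e-04, edgeR, 18.4% called). The difference of -0.39 ± 0.27 from 3 to 12 hpa did not pass (adjusted p = 0.303, edgeR). Neither did that from 12 to 24 hpa, at -0.96 ± 0.27 (adjusted p = 0.0224, edgeR), nor that from 24 to 48 hpa, at 0.27 ± 0.26 (adjusted p = 0.638). These differences between times were chosen for testing after the values had been seen.

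Relative to the aboral tissue taken at the cut, the alsterpaullone libraries did not change detectably at 3, 12 or 48 hpa, with log2 fold changes of 0.19 ± 0.17, 0.10 ± 0.17 and 0.05 ± 0.16 (adjusted p of 0.394, 0.730 and 0.860, edgeR). At 24 hpa the value was -0.57 ± 0.20 (adjusted p = 0.0230, edgeR), outside the threshold with edgeR and inside it with DESeq2, at an adjusted p of 0.00887. The contrast with head regeneration was wide. ALP over HR was -1.46 ± 0.20 at 24 hpa (adjusted p = 7.75e-08, 11.7% called) and -3.47 ± 0.14 at 48 hpa (adjusted p = 7.50e-27, edgeR, 25.5% called), where brachyury1 ranked 8 by p-value. ALP at 48 hpa remained above Foot by 0.61 ± 0.17 (adjusted p = 0.00179, edgeR, 58.7% called), with 6.39 to 8.13 CPM in ALP and 4.01 to 5.63 CPM in Foot. Foot lay below FR at 48 hpa by a log2 fold change of -1.32 ± 0.17 (adjusted p = 2.60e-09, edgeR, 57.8% called). The foot markers nk2, dlx2 and gata3 summed to 26.9 to 30.4 CPM in ALP at 24 hpa, against 15.3 to 19.4 CPM in FR, and to 22.7 to 28.7 CPM at 48 hpa, against 16.6 to 20.2 CPM in FR. At 3 hpa their sum was lower in ALP, at 6.90 to 9.67 CPM against 13.7 to 15.1 CPM in FR. At 12 hpa the sums overlapped, at 20.7 to 28.5 CPM in ALP and 20.7 to 24.1 CPM in FR, but they hide opposite differences. The mean of dlx2 was higher in ALP (14.1 against 4.95 CPM in FR). Those of nk2 (2.47 against 4.56 CPM) and gata3 (7.99 against 12.7 CPM) were lower.

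**Figure D3:**
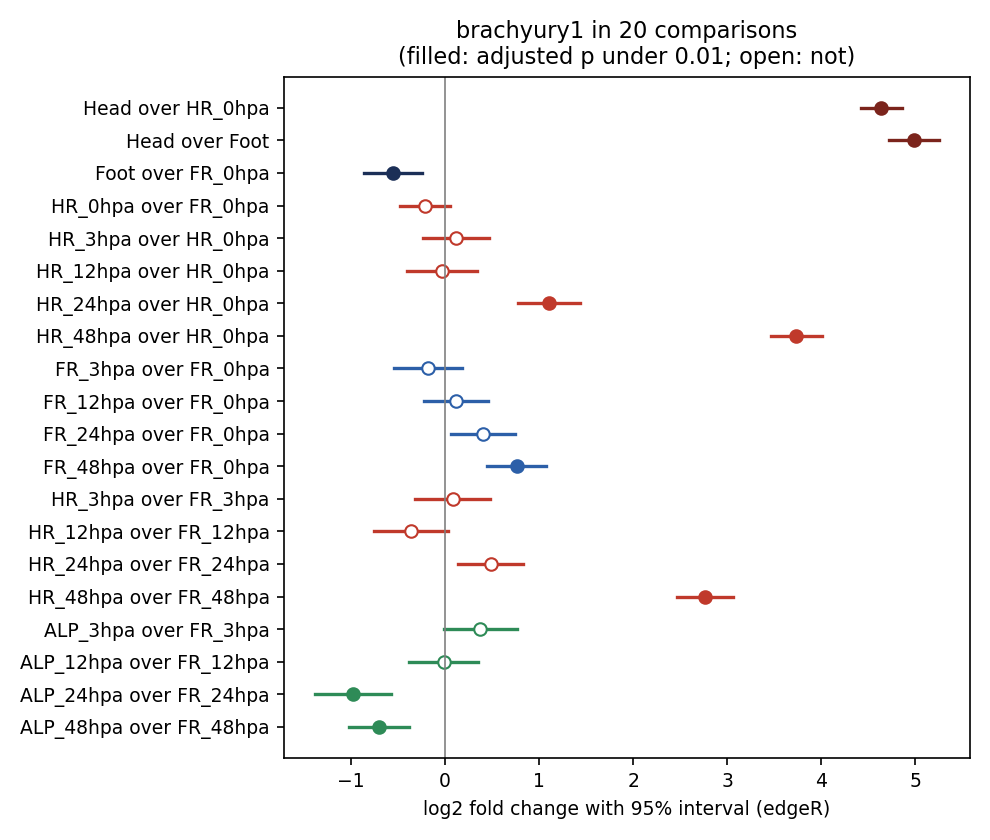
Log2 fold change of brachyury1 with its 95% interval (edgeR) in the 20 comparisons of groups, the group named first over the group named second. Filled points passed an adjusted p of 0.01 and open points did not. The largest values are Head over Foot at 4.98, Head over HR at 0 hpa at 4.64 and HR at 48 hpa over its 0 hpa at 3.74, and both later ALP comparisons lie below 0.

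The other genes of the Wnt pathway were counted by role. The 9 Wnt ligands, the secreted signals, were all called higher than in HR at 0 hpa both in Head (6703 of all 17676 transcripts higher, 77.2% called in either direction) and in HR at 48 hpa (3356 higher, 35% called). At 48 hpa their median log2 fold change was 3.98 beside -0.03 over all transcripts. At 24 hpa, of the 9, only the Wnt-5a match (1.42 ± 0.14) and wnt9/10c (4.79 ± 0.71) were called higher and the Wnt-4a match lower (-1.90 ± 0.49), beside 23.8% of all transcripts called. The level of wnt9/10c was then 1.53 CPM, against 0.0699 CPM in HR at 0 hpa. wnt3, the ligand of the *Hydra* organizer, had 0.0247 CPM in HR at 0 hpa, 0.240 CPM at 24 hpa and 11.3 CPM at 48 hpa (log2 fold change 8.46 ± 0.50 over 0 hpa, adjusted p = 8.17e-20, edgeR). At 3 hpa wnt3 (4.06 ± 0.84, 0.533 CPM) and wnt9/10c (2.61 ± 0.74, 0.603 CPM) were called higher, beside 10.6% of all transcripts called, at levels far below those of 48 hpa. At 48 hpa 8 of the 9 ligands were higher in HR than in FR, with a median of 4.86, beside 22.7% of all transcripts called.

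Of the 7 genes for ligand secretion and reception, the change since 0 hpa in HR passed upward for 5 and downward for 1 at 24 hpa, and upward for 4 at 48 hpa, beside 23.8% and 35% of all transcripts called. wntless, which carries Wnt proteins to the cell surface, rose by 1.04 ± 0.10 at 24 hpa and 2.31 ± 0.09 at 48 hpa on the log2 scale. The Frizzled-4 match, a Wnt receptor, rose by 0.78 ± 0.14 and 0.90 ± 0.13. All 4 nuclear and feedback genes had risen in HR at both 24 and 48 hpa, with medians of 1.17 and 1.39 and the same shares of all transcripts called. The factor tcf, through which β-catenin reaches DNA, rose by 1.10 ± 0.07 and 1.23 ± 0.07 on the log2 scale. axin1, a feedback inhibitor of the pathway, rose by 1.30 ± 0.08 and 1.96 ± 0.08, and sp5, a transcription factor that limits wnt3 in *Hydra*, by 1.24 ± 0.13 and 1.56 ± 0.12. At 12 hpa 3 of these 4 had already risen (11.6% of all transcripts called), with a median of 0.62, when brachyury1 was at -0.03.

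In FR at 48 hpa, where brachyury1 was 1.69-fold above 0 hpa, 3 of the 4 nuclear and feedback genes (median 0.41), 5 of the 7 genes for secretion and reception and 1 of the 9 ligands had risen, and 1 ligand had fallen. Of all transcripts 20% were called there, so the ligands' 2 of 9 lies near that share.

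Of the 4 Wnt antagonists, which bind the ligands or their receptors outside the cell, none was called in HR at 24 hpa by edgeR (23.8% of all transcripts called) and 3 were called higher at 48 hpa (median 2.57, 35% called). At 24 hpa the matches of sFRP and sFRP-3 came nearest, at 1.39 ± 0.57 and 1.48 ± 0.50 (adjusted p of 0.0547 and 0.0171, edgeR). At an unadjusted p under 0.05 these 2 passed.

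After alsterpaullone 3 of the 4 nuclear and feedback genes were higher than in DMSO at 3 hpa, and 3 of the 4 were lower at 24 and at 48 hpa. The shares of all transcripts called were 13.1% at 3 hpa, 10.9% at 24 hpa and 16.1% at 48 hpa. At 3 hpa axin1 (1.12 ± 0.09), tcf (0.88 ± 0.08) and sp5 (0.65 ± 0.14) were higher in ALP than in FR, and no ligand of the 9 was called. The nearest ligand was wnt3, at -2.68 ± 0.89 (adjusted p = 0.0241, edgeR). At an unadjusted p under 0.05, 4 of the 9 would have passed. At 12 hpa, with 4.01% of all transcripts called, sp5 was lower in ALP (-1.58 ± 0.15), wnt3 was higher (3.92 ± 0.59, 1.73 against 0.103 CPM) and wntless was higher (1.46 ± 0.11). The ALP library of 12 hpa that stood apart in nerve and head markers enters these values. At 24 hpa axin1 (-0.37 ± 0.09), tcf (-0.51 ± 0.08) and sp5 (-0.96 ± 0.14) were all lower in ALP. At 48 hpa axin1 (-0.56 ± 0.08), tcf (-0.61 ± 0.07) and tle3 (-0.29 ± 0.05), a co-repressor that binds TCF, were lower, and sp5 stood at -0.12 ± 0.13. In the same comparisons, from 3 to 48 hpa, brachyury1 was at 0.37, -0.02, -0.98 and -0.70.

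The remaining lists behaved differently from each other. The annotation holds 1 further T-box transcript with a name (R012518c0g1_i01, a match to TBX18 and TBX1). It had 2.89 CPM in Head and 5.17 CPM in Foot (log2 fold change -0.84 ± 0.21) and was not called in HR at 48 hpa over 0 hpa (-0.15 ± 0.32, adjusted p = 0.750, edgeR). Its r with brachyury1 over the 16 group means was 0.222. Of the 4 head factors, 3 rose in HR by 48 hpa (35% of all transcripts called), namely the matches of ZIC4 (6.53 ± 0.24), a tentacle regulator in *Hydra*, OTX1 (6.15 ± 0.51) and orthopedia (7.05 ± 0.45). The OTX1 match went from 0.0612 CPM at 0 hpa to 3.88 CPM, and the orthopedia match from 0.0164 to 4.33 CPM. Both folds therefore rest on very few counts at 0 hpa. The remaining member, the DMRT2 match, was nearly absent from the mature head, with 0.094 CPM in Head against 12.6 CPM in HR at 0 hpa. The ZIC4 match (3.40 ± 0.32) and the OTX1 match (2.28 ± 0.68, at 0.416 CPM) were also called at 24 hpa (23.8% called). In ALP over FR at 12 hpa (4.01% called) 2 of the 4 were higher, the ZIC4 match (2.93 ± 0.43) and the orthopedia match, which had 13 counts over the ALP libraries and 0 over the FR libraries. The ALP library of 12 hpa that stood apart in nerve and head markers enters these values too. At 24 hpa none of the 4 was called in ALP over FR by edgeR (10.9% of all transcripts called), the DMRT2 match coming nearest at 0.48 ± 0.35 (adjusted p = 0.408). At an unadjusted p under 0.05 the count was 0 as well.

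Of the 5 foot factors, 2 fell and 1 rose in HR at 48 hpa relative to 0 hpa, beside 35% of all transcripts called. The homeobox factor nk2 fell by 1.56 on the log2 scale and the zinc finger factor gata3 fell by 1.21. In ALP over FR, 4 of the 5 were higher at 24 hpa (848 of all transcripts higher, 10.9% called in either direction), among them fd4 (3.73 ± 0.73, 1.18 against 0.0942 CPM), dlx2 (1.12 ± 0.27) and nk2 (0.82 ± 0.19), at the time when brachyury1 was lowest. Other times differed. At 3 hpa none of the 5 foot factors was higher and 2 were lower (13.1% called). At 12 hpa 1 was higher and 3 were lower (4.01% called), and at 48 hpa 3 were higher and 1 lower (16.1% called). None of the 5 TGF-β genes was called in HR at 48 hpa by edgeR (35% of all transcripts called), the DVR-1 match coming nearest at 1.72 ± 0.70 (adjusted p = 0.0399). At an unadjusted p under 0.05 the count was 1. The injury genes fos, jun and creb gave 2 higher calls at 3 hpa in HR (10.6% of all transcripts called), when brachyury1 was at 0.11, and fos had 142 CPM against 2.29 CPM at 0 hpa. Both nerve peptides rose in HR by 48 hpa, and of the 2 gland enzymes 1 was higher and 1 lower, beside 35% of all transcripts called.

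Measured against the mature head, brachyury1 came back further by 48 hpa than most head transcripts. Among 2204 transcripts called higher in Head than in HR at 0 hpa with a log2 fold change above 2, brachyury1 included, the mean CPM in HR at 48 hpa was expressed in percent of the mean CPM in Head. brachyury1 reached 54.7%, the median was 21.9% with quartiles of 12.1% and 32.5%, and 150 transcripts (6.81%) lay above it. At 24 hpa brachyury1 stood at 8.30% and the median at 12.7%, with 1374 transcripts above it, and at 3 and 12 hpa it stood at 4.41% and 3.98%. The medians at 3 and 12 hpa were 11.5% and 11%. brachyury1 started from 3.95% at 0 hpa, so its values at 3 and 12 hpa are those of its level at the cut. Since a transcript with a larger head excess starts from a lower percentage, its place below the median before 48 hpa says nothing of a slower return.

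**Figure D4:**
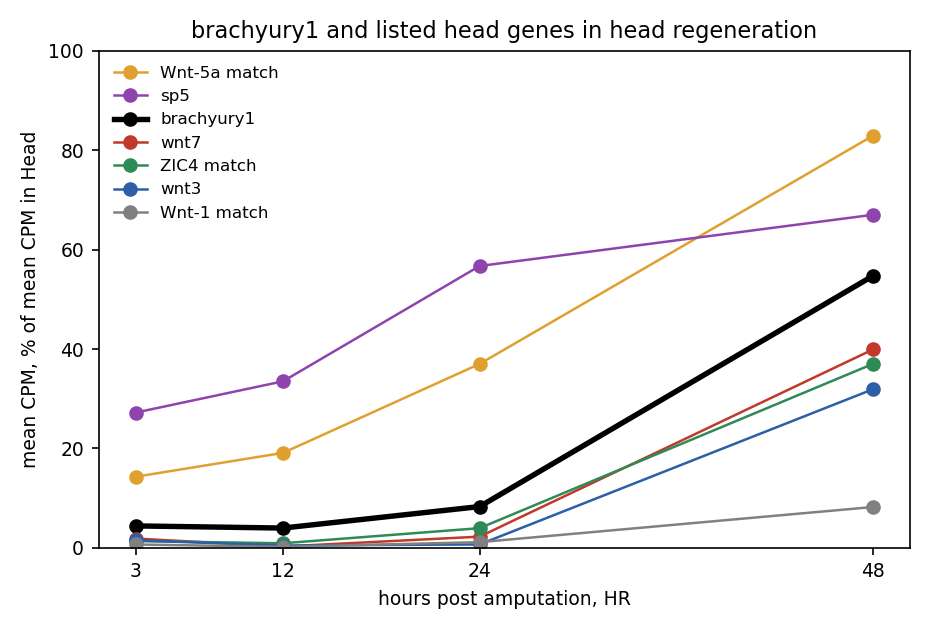
Mean CPM in HR in percent of the mean CPM in Head, at 3 to 48 hpa, for brachyury1 (thick black line) and 6 listed Wnt and head genes. brachyury1 goes to 54.7% at 48 hpa, below the Wnt-5a match at 82.9% and sp5 at 67.0% and above wnt7 at 39.9%, the ZIC4 match at 37.0%, wnt3 at 31.9% and the Wnt-1 match at 8.21%.

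sp5 and the Wnt-5a match stood nearer to their head level than brachyury1 at every time, at 56.7% and 37.0% at 24 hpa. wnt3, wnt7 and the ZIC4 match stood at 0.682%, 2.25% and 3.96% at 24 hpa, below brachyury1, and remained below it at 48 hpa. These percentages also depend on the level at the cut, so their order is not an order of rises. In HR at 0 hpa wnt3 had 0.0247 CPM against 35.2 CPM in Head, brachyury1 5.95 against 150.5 CPM and sp5 64 against 274 CPM. wnt9/10c reached 37.2% at 48 hpa. The 2 RFamide matches had returned to 2.81% and 9.29% by then and the Chymotrypsinogen B match to 9.30%, all far below brachyury1.

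**Figure D5:**
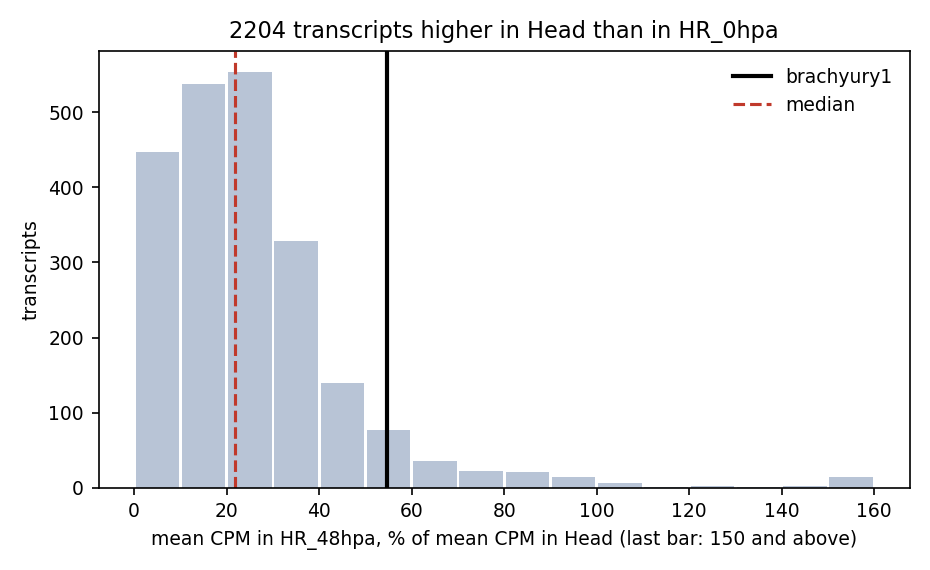
Number of transcripts by mean CPM in HR at 48 hpa in percent of the mean CPM in Head, for the 2204 transcripts higher in Head than in HR at 0 hpa. The solid line marks brachyury1 at 54.7% and the dashed line the median at 21.9%.

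On a scale that allows genes to be compared, the authors' FPKM, fragments per kilobase of transcript scaled to the library total, brachyury1 had 39.46 ± 6.505 FPKM in HR at 48 hpa and 2.96 ± 0.612 FPKM at 0 hpa. At 48 hpa the level of brachyury1 lay below that of the ZIC4 match (55.6 FPKM) and axin1 (44.5 FPKM) and above those of wnt3 (8.94 FPKM), wnt7 (19.98 FPKM) and the Wnt-5a match (23.4 FPKM), and 2818 of 23396 transcripts were higher. At 0 hpa wnt3 had 0.0200 FPKM, wnt7 0.466 FPKM and the ZIC4 match 0.581 FPKM, all below brachyury1, while the Wnt-5a match (4.03 FPKM) and axin1 (11.7 FPKM) were above it. sp5 was above it at both times, with 124 FPKM at 48 hpa and 44.8 FPKM at 0 hpa.

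The transcripts whose pattern was most like that of brachyury1 were found by Pearson's r of log2 CPM over the 16 group means, among 14414 transcripts with a mean log2 CPM above 0. The median r was -0.109, and 56 transcripts exceeded 0.9. The group means share libraries and depth, and Head and HR at 48 hpa weigh heavily in each r. The nearest was a match to seminal plasma protein PDC-109 (r = 0.965), which had 192 CPM in Head, 24.8 in HR at 48 hpa and 0.344 in HR at 0 hpa. The transcript R030897c0g1_i01, for which the study's tables give no name, followed at r = 0.959, and a match to an SLC2 glucose transporter came next at r = 0.951. Further down were matches to S-crystallin 4 (r = 0.948), the matrix protein hemicentin-1 (0.936), the calcium sensor calmodulin (0.936), α-latrocrustotoxin (0.934), the zinc finger factor FEZF2 (0.933) and a GABA transporter (0.931). Over the 14 groups without Head and HR at 48 hpa, an alternative chosen after seeing the data, these r fell to between 0.243 for R030897c0g1_i01 and 0.867 for the calmodulin match. Among the listed genes the ZIC4 match was nearest (r = 0.914), before the Chymotrypsinogen B match (0.879), the Wnt-5a match (0.857) and the Frizzled-4 match (0.831). axin1 had r = 0.751, tcf 0.659 and sp5 0.658, and nk2 was the most unlike of the listed genes with a value, at r = -0.746.

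The spread between libraries was larger than counting alone gives in 14 of the 16 groups. In HR at 48 hpa the coefficient of variation of CPM was 15.7%, against 2.42% from counting at a mean of 1711 counts. In ALP at 24 hpa, with a mean of 79 counts, it was 22.2%, against 11.4% from counting. The biological coefficient of variation that edgeR gave brachyury1 was 12.9%, above the median transcript at 9.39%. The values from counting cover counting error only, and the reads carry no molecular identifiers.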

How the data were processed

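RNA from 61 pools of 30 tissue pieces was sequenced after poly(A) selection. Per the labels, the authors trimmed reads with Trimmomatic (0.39; 0.36 in the methods), aligned them with Bowtie2 to a reduced *H. oligactis* transcriptome and deposited RSEM expected counts per transcript, before any batch correction. The authors also deposited FPKM values, normalized for transcript length and library total, of which 35 columns were used and 4 per-sample columns were not. Isoforms and near-identical transcripts share reads by RSEM's estimate. Of the count columns, 30 could be matched to a sample and 31 only to a group, which were used as replicates with no number of their own.

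Since 5.33% of the expected counts had decimals (none of brachyury1's did), rounding preceded the tests. The low-count filter was edgeR's filterByExpr with the groups given, its count minimum at 10 and its total minimum at 15, and 17676 of 23396 transcripts remained. Libraries were scaled by TMM and tested with edgeR 4.0.16 (quasi-likelihood, R 4.3.3) with 1 term per group and a batch term, called at a Benjamini-Hochberg adjusted p under 0.01. Batch 1 held the samples of 3, 12 and 48 hpa and part of 0 hpa, and batch 2 those of 24 hpa and the rest of 0 hpa. Head and Foot, whose columns do not show the batch, took the value 0.4, the share of batch 2 in their labels. Log2 CPM used a prior count of 2. Exact permutation tests were 2-sided. No 2 libraries of a group agreed within sampling noise (chi-square per transcript of 2.06 to 25.5 over 101 pairs). The test was tested on simulated data for HR at 48 over 0 hpa. It recovered 30 of 50 changes of 1.5-fold, 43 of 50 of 2-fold, 48 of 50 of 4-fold and 50 of 50 of 13-fold. It also called 2 unchanged transcripts. Changes of 1.5-fold or less, and some larger ones, can therefore go uncalled. The simulated data held no batch difference and covered 3 against 7 libraries, so these shares need not hold for 3 against 3.

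brachyury1 was taken by its identifier, and the 46 genes of the 11 lists were named from the study's tables. The members and lists were chosen with earlier results of these data known. All list members were counted, and up to 4 per list and comparison with the smallest p are named, besides the genes described as background to a result, which were chosen after their values were seen. The 3 transcripts nearest to brachyury1 by r, and the 8 nearest with a protein name, are named. Alternatives were DESeq2 1.42.0 (its size factors, and its Wald test), no filter, glmTreat, no batch term, ComBat_seq (sva 3.50.0), only the groups compared, a threshold of 0.05, FPKM with limma 3.58.1 (pseudocounts 0.1 and 1), a replicate block, and each library left out. The sequence of brachyury1 was not used here.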

Additional observations from a re-analysis of the deposited data

Results flagged for a closer look

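One library of FR at 0 hpa (library 5) had 4.26 CPM of brachyury1, and the next lowest of the 7 had 6.64 CPM. The gap was 0.581 of the group's range, above the critical value of 0.568 for 7 libraries. Of 5 groups large enough for this comparison, 1 had such a library, and chance flags about 1 group in 20.

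The change of brachyury1 since 0 hpa differed between the wounds at 48 hpa. It was larger in HR than in FR by 2.98 ± 0.20 on the log2 scale (adjusted p = 6.65e-18, edgeR), with all 3 HR libraries above all 3 FR libraries.

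The effect of alsterpaullone at the aboral wound differed between times. The log2 effect at 24 hpa less that at 3 hpa was -1.35 ± 0.28 (adjusted p = 1.78e-04, edgeR), and that at 48 hpa less that at 3 hpa was -1.08 ± 0.25 (adjusted p = 7.30e-04, edgeR). All ALP libraries lay above all FR libraries at 3 hpa and below them at 24 and 48 hpa. The effect at 3 hpa was itself not called, and the difference of 24 from 3 hpa crosses the batches.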

How the results depend on the processing

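The rise of brachyury1 in HR at 24 and 48 hpa, its excess in Head and its excess in HR over FR at 48 hpa kept their direction and call under every alternative that was run. With DESeq2 size factors, and with no filter, all 43 values kept direction and call, as did all 16 that FPKM with limma could give. Against a minimum fold of 1.2 (glmTreat) the calls of Foot over FR at 0 hpa (-0.556), ALP over FR at 48 hpa (-0.704) and ALP at 48 hpa over Foot (0.611) were lost. In fits of only the groups compared, FR at 48 over 0 hpa was 0.712 and lost its call, and HR over FR at 24 hpa was 0.483 and gained one. HR at 12 over 0 hpa, close to 0, turned sign with no batch term (0.006), with only the groups compared (0.010) and with only batch 1 (0.010, chosen after seeing the data). ALP at 24 hpa over FR at 0 hpa gained a call with no batch term (-0.618), with ComBat_seq (-0.570) and with DESeq2 (-0.564), and the ALP effect at 24 less 12 hpa with DESeq2 (-0.956). Leaving out each library in turn gave -0.142 to 0.054 for HR at 12 over 0 hpa, -0.008 to 0.294 for FR at 12 over 0 hpa, -0.013 to 0.141 for HR over FR at 3 hpa, -0.196 to 0.136 for ALP over FR at 12 hpa and -0.081 to 0.251 for ALP at 12 hpa over FR at 0 hpa. It gave -1.073 to -0.784 for ALP over FR at 24 hpa, where the call was lost without ALP library 2, and -0.712 to -0.389 for ALP at 24 hpa over FR at 0 hpa, which was called without FR library 5 of 0 hpa. The cause of these changes was not tested.

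With the replicate block, HR over FR at 24 hpa was 0.484 (adjusted p = 0.00806, edgeR) and called, at 0 hpa it was -0.225 and ALP over FR at 24 hpa was -0.969, with no change of call. Deviations of same-numbered samples correlated at 0.041 to 0.37 over 7 pairs at 0 hpa, where 3 samples matched best with their own number, and at 0.005 to 0.012 and -0.001 to 0.018 at 24 hpa, so the numbers were not taken to pair the samples. The block called 1929 and 2753 transcripts in HR over FR and ALP over FR at 24 hpa, against 789 and 1928 in the fit of all libraries and 1963 and 2591 in fits of only the groups. Such fits also lowered the count of calls for HR at 12 over 0 hpa (1348 in place of 2043), FR at 3, 12, 24 and 48 over 0 hpa (866, 602, 2270 and 1296 in place of 2006, 1756, 3909 and 3542), HR over FR at 3 and 48 hpa (313 and 2160 in place of 519 and 4013) and ALP over FR at 48 hpa (1511 in place of 2840). glmTreat gave 228 in ALP over FR at 12 hpa in place of 708, and 628 at 48 hpa, and a threshold of 0.05 gave 1580 and 4400. Among the 46 listed genes, a threshold of 0.05 raised the calls most in HR at 3 over 0 hpa, with 20 in place of 11, and ALP over FR at 12 hpa, with 22 in place of 14. Low levels limit the precision: in ALP at 24 hpa counting alone gave a coefficient of variation of 11.4%.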
